A study of Mus musculus with 4 samples.

Results

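Nr2f1, Nr2f2, Prox1, Id2, Npas1 and Sp8 are 6 genes known for their part in neurons born in the caudal ganglionic eminence, 1 of the embryonic sources of forebrain inhibitory neurons. They were taken by name, 6 of the 20136 genes counted, and described across GABAergic (inhibitory) neurons of the BNST (bed nucleus of stria terminalis), which belongs to the extended amygdala. The study profiled BNST tissue punches of male wildtype C57BL/6J mice by Drop-seq, in which barcoded beads catch the RNA of single cells and a random tag (unique molecular identifier, UMI) lets each RNA molecule be counted once. It holds 4 libraries, each from 6 pooled mice (24 mice), which form a single group with no treatment and no control. All comparisons therefore set cells of a library against other cells of the same library. The sample titles name each library as a Drop-seq batch of its own. The spread and the p-values given reflect differences between libraries, in which pool of mice and batch cannot be told apart, together with counting error.

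Nr2f1 and Nr2f2 (COUP-TFI and COUP-TFII) are related orphan nuclear receptors, Prox1 is a homeodomain factor, Npas1 is a bHLH-PAS factor and Sp8 is a zinc finger factor. Id2 has a helix-loop-helix domain without a DNA-binding region, so that it pairs with E proteins and keeps them from binding their E-box sites. In the cortex, Nr2f2, Prox1 and Sp8 are widely used to mark interneurons of caudal ganglionic origin, while the lateral eminence gives rise to striatal projection neurons and the medial eminence to neurons that keep Lhx6. Outside neurons, Prox1 is known in cells of the oligodendrocyte lineage and Id2 in astrocytes and oligodendrocyte precursors.

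The stretches before the starts of Nr2f2 and Id2 are shown because, of the 6 members, these differed most between Cck-Greb1 neurons and the other gated neurons described below. Both are written on the gene's strand, from RefSeq on GRCm38.p6, and capitals mark the E-box letters CAGCTG. The Nr2f2 stretch is chr7:70366747-70366996 and covers the 250 bases before the start, where an exon of the noncoding B130024G19Rik lies on the other strand. The Id2 stretch is chr12:25096254-25096342, the 89 bases of that window that lie outside a UTR annotated in GENCODE vM21, where a longer transcript starts upstream of it.
Nr2f2: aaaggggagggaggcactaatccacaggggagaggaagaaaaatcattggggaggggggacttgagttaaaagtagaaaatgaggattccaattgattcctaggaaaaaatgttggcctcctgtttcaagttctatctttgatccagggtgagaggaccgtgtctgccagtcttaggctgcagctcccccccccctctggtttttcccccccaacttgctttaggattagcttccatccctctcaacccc
Id2: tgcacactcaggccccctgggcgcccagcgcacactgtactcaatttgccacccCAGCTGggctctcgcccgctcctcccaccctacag
Windows of 250 bases were searched on both strands for CAGCTG and for AGGTCA, the half-site of many nuclear receptors. Id2 held 1 CAGCTG and no AGGTCA, and Nr2f2 held neither. Of 32851 such windows in RefSeq, 13.0% held CAGCTG and 14.0% held AGGTCA. GC content was 62.8% before Id2 and 50% before Nr2f2.

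Of 10200 barcodes, 4181 cells were kept (1281, 889, 837 and 1174 in libraries 1 to 4) and 2181 of them were GABAergic by Gad1, Gad2 and Slc32a1 UMIs (679, 478, 370 and 654). No kept barcode was shared between libraries. Marker genes other than the 6 members sorted 1337 GABAergic cells into 12 gates, each named for its markers, and left 844 without a gate. The Cck-Greb1 gate held 54, 14, 36 and 21 cells of libraries 1 to 4 (125 in all), and 1212 cells fell in the other 11 gates. It is called by its markers, the neuropeptide gene Cck and Greb1, an estrogen-responsive gene. Of its cells, 52 held UMIs of both, 63 of Cck only and 10 of Greb1 only. Median depth was 5887 UMIs in Cck-Greb1 cells and 4005.5 in the other gated cells.

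The 6 members differed widely in how often they were caught. Over all barcodes, Nr2f2 had 826, 298, 401 and 333 UMIs in libraries 1 to 4, and Nr2f1 had 490, 175, 281 and 225. Prox1 had 294, 126, 302 and 132 UMIs, and Id2 had 601, 241, 230 and 252. Npas1 and Sp8 were near the detection limit, with 31, 7, 0 and 4 UMIs of Npas1 and 10, 10, 8 and 12 of Sp8. The table of library 3 does not list Npas1, which was taken as 0.

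Nr2f2 and Id2 were the members that set the Cck-Greb1 cells apart. Levels are given in CPM, a gene's UMIs over all UMIs of the summed cells, multiplied by 1000000. In Cck-Greb1 cells, Nr2f2 (chr7:70351944-70366735, minus strand of GRCm38) stood at 452.5, 225, 524 and 607.5 CPM in libraries 1 to 4, and in the cells of the other gates at 114, 95.2, 119.7 and 95.2 CPM. The groups did not overlap, and library 2 was the lowest of the Cck-Greb1 values. Here and below, how many of all tested genes also showed no overlap was not counted, so this only describes the values. The means were 452 ± 164 against 106.0 ± 12.6 CPM (SD, n = 4 libraries), a log2 fold change of 2.10 (SE 0.14, edgeR adjusted p = 1.01e-22), higher in 4 of 4 libraries.

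Id2 (chr12:25093799-25097140, minus strand) stood at 297, 259, 179.8 and 399 CPM in Cck-Greb1 cells and at 53.3, 37.1, 22.9 and 29.0 CPM in the other gates. Here too the groups did not overlap, and the lowest Cck-Greb1 value was that of library 3. The log2 fold change was 2.92 (SE 0.19, edgeR adjusted p = 2.88e-23), with means of 284 ± 90.9 and 35.6 ± 13.2 CPM (SD, n = 4). Cck-Greb1 cells were 9.35% of gated cells and held 12.3% of their UMIs. They held 48.3% of the gated Id2 UMIs (210 of 435) and 38.2% of the gated Nr2f2 UMIs (369 of 965). The 844 ungated GABAergic cells enter neither share. They held 409 Nr2f2 UMIs (163 ± 21.7 CPM) and 197 Id2 UMIs (75.2 ± 17.0 CPM, SD, n = 4).

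Nr2f1 rose by a smaller amount. It stood at 191.8, 101.4, 148.5 and 104.4 CPM in Cck-Greb1 cells and at 86.5, 72.5, 114.6 and 62.1 CPM in the other gates of the same libraries. Each library was higher in its Cck-Greb1 cells, but the groups overlapped, since libraries 2 and 4 in Cck-Greb1 cells fell below library 3 of the other gates. The log2 fold change was 0.80 (SE 0.19, edgeR adjusted p = 0.00157), and it missed the threshold without library 1 (0.51, adjusted p = 0.348), with the mitochondrial limit at 5% (0.61, adjusted p = 0.344), without the library block (0.85, adjusted p = 0.0894) and with DESeq2 (0.75, adjusted p = 0.13). Nr2f1 (chr13:78188973-78199757, minus strand) is overlapped on the other strand by A830082K12Rik, which had 388 UMIs of its own and stood at 46.1 ± 12.1 CPM in Cck-Greb1 cells and 22.2 ± 3.80 CPM in the other gates (SD, n = 4). The counting strand is not given in the sources used here, so the values of Nr2f1 are uncertain to that extent. Nr2f2 is overlapped in the same way by B130024G19Rik, which had 2 UMIs in all tables.

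Prox1 (chr1:190118035-190170714, minus strand) did not pass the test. Prox1 is overlapped on the other strand by Gm28172 and Prox1os, neither among the genes counted, so its values carry the same strand uncertainty. It stood at 47.9, 22.5, 78.2 and 19.0 CPM in Cck-Greb1 cells against 31.1, 12.6, 34.4 and 22.6 CPM, higher in libraries 1, 2 and 3 and lower in library 4. The log2 difference was 0.79 (SE 0.32, edgeR adjusted p = 0.160). Limited to cells with both Cck and Greb1 UMIs the difference was -0.22 (edgeR adjusted p = 0.934). That fit had 15, 7, 19 and 11 such cells in libraries 1 to 4. The 52 such cells held 9 Prox1 UMIs and the 63 with Cck only held 25.

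Npas1 (chr7:16455721-16477728, minus strand) and Sp8 (chr12:118846329-118852576, plus strand) had too few UMIs to be tested. Cck-Greb1 cells held 4, 1, 0 and 0 UMIs of Npas1 in libraries 1 to 4 (6.38 CPM over all 125 cells, against 5.01 CPM in the other gates). For Sp8 they held 1, 0, 2 and 0 UMIs (3.83 against 2.15 CPM), which is the count of 3 that serves as the detection limit. Of the 6 members, 4 had enough counts to be tested in this comparison and 3 of them were called at an adjusted p of 0.05, where 6.35% of the 7737 genes tested were called.

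**Figure D1:**
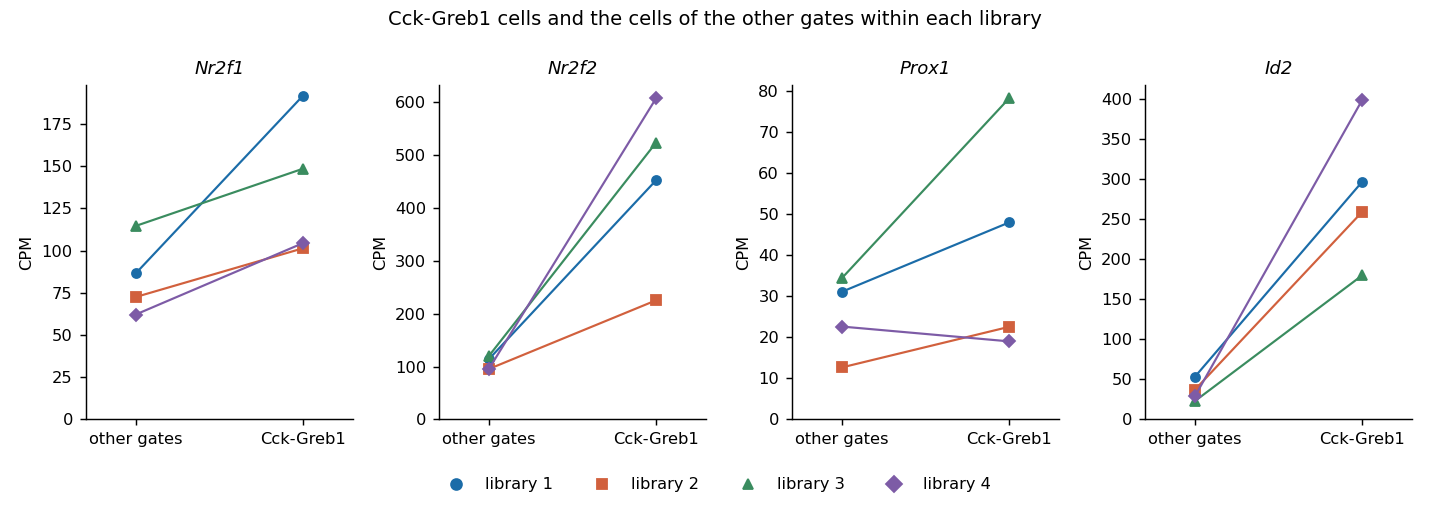
Levels of 4 members in CPM (vertical axis, from 0) in the cells of the other 11 gates and in Cck-Greb1 cells, with 1 line per library. Nr2f2 and Id2 rose in every library without overlap of the groups, and Nr2f1 rose in every library with overlap. How many of all tested genes did the same was not counted. Prox1 was lower in the Cck-Greb1 cells of library 4 (19.0 against 22.6 CPM).

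Shares of Cck-Greb1 cells with a UMI put the 4 tested members in the same order as their mean levels in these cells. Nr2f2 was caught in 101 of 125 Cck-Greb1 cells (80.8%) and 267 of 1212 cells of the other gates (22.0%), and Id2 in 71 (56.8%) and 132 (10.9%). Because Cck-Greb1 cells were deeper, the shares were also computed at 1000 UMIs per cell, leaving out 3 Cck-Greb1 cells and 47 others that were shallower. At that depth Nr2f2 was caught in 34.1% ± 10.8 of Cck-Greb1 cells and 8.14% ± 1.24 of the others (SD, n = 4). For Id2 the shares were 20.8% ± 6.28 and 3.70% ± 1.02, and for Nr2f1 12.4% ± 4.61 and 7.0% ± 1.22. Prox1 stood at 4.82% ± 3.25 and 2.19% ± 0.84. Oligodendrocytes, which had few UMIs of Nr2f1, Nr2f2 and Id2, gave 0.481% for Nr2f2, 0.542% for Id2 and 0.285% for Nr2f1 at the same depth (median 1386 UMIs before it), and unthinned 0.640%, 0.854% and 0.961%.

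The markers of other cell types were measured in the same cells. These lists also set the classes. A GABAergic cell had to hold more UMIs of Gad1, Gad2 and Slc32a1 than of any other list. Low values of the other lists therefore follow in part from the gating. Astrocyte markers (Aqp4, Gja1, Agt, Ntsr2 and Gjb6) summed to between 0 and 15.6 CPM in the Cck-Greb1 cells of the 4 libraries and to between 1.26 and 8.07 CPM in the other gates, with Gjb6 at 0 in both. Without the GABAergic cells that held any astrocyte marker UMI, the Id2 log2 fold change was 2.92 and that of Nr2f2 2.11. Both glutamatergic markers (Slc17a6 and Slc17a7), all 6 vascular and all 6 microglial markers were at 0 in the Cck-Greb1 cells. Oligodendrocyte markers, of which Mog and Cldn11 were at 0, summed to between 15.6 and 47.5 CPM there and to between 13.4 and 26.7 CPM in the other gates, and their part in the Prox1 values was not tested. Precursor markers, of which Cspg4 was at 0, summed to at most 7.82 CPM.

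Single Cck-Greb1 cells usually held more than 1 of the 4 common members. A UMI of none of Nr2f1, Nr2f2, Prox1 and Id2 was found in 10 of 125 cells (8%), of exactly 1 in 25 (20%), of 2 in 47 (37.6%), of 3 in 38 (30.4%) and of all 4 in 5 (4%). In the other gates the same shares were 60.0%, 24.4%, 10.8%, 3.38% and 1.4% of 1212 cells. Nr2f2 and Id2 were found together in 62 Cck-Greb1 cells, which were 61.4% of the cells with Nr2f2 and 87.3% of those with Id2. Of the Cck-Greb1 cells without Id2, 72.2% held Nr2f2, and of those without Nr2f2, 37.5% held Id2. These shares are not adjusted for depth. At 1000 UMIs only 5 of 122 cells held both, with Id2 in 11.9% of the 42 cells with Nr2f2 and 22.5% of the cells without, so that joint detection within the gate was not followed further at that depth.

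**Figure D2:**
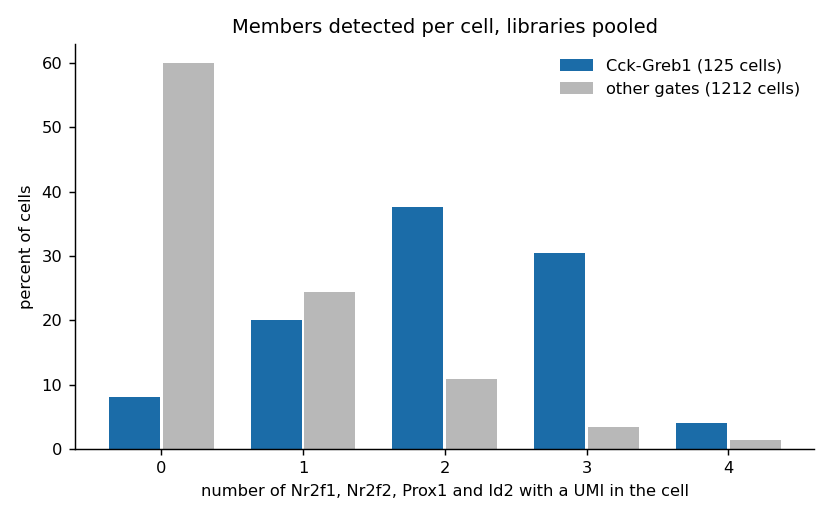
Percent of cells (vertical axis, from 0) by the number of Nr2f1, Nr2f2, Prox1 and Id2 with at least 1 UMI, for 125 Cck-Greb1 cells and 1212 cells of the other gates, libraries pooled. Cells with none made up 8% of the former and 60.0% of the latter, whose depths differed (medians of 5887 and 4005.5 UMIs).

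The gate was also divided by Pnoc, the prepronociceptin gene that the study is about. Pnoc stood at 392 ± 107 CPM in Cck-Greb1 cells and 136 ± 41.4 CPM in the other gates (SD, n = 4), and 61 of 125 Cck-Greb1 cells held a Pnoc UMI (22, 7, 21 and 11 in libraries 1 to 4). Between cells with and without one, the log2 differences were -0.13 (SE 0.31) for Nr2f1, 0.15 (SE 0.18) for Nr2f2 and 0.37 (SE 0.23) for Id2. None of the 3 tested members was called (edgeR adjusted p = 0.974, 0.922 and 0.862), where 1.10% of 1826 genes were, and 143 genes had an unadjusted p under 0.05. Library 2 entered this test with 7 cells on each side. These standard errors do not show that the members were alike on both sides.

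Across all gates, each of the 4 tested members was uneven. The edgeR test covered all 12 gates, each with the libraries that held at least 10 of its cells. It gave F = 24.2 for Nr2f2 (adjusted p = 9.15e-20) and 23.9 for Id2 (adjusted p = 1.23e-19). It gave F = 10.5 for Prox1 (adjusted p = 2.44e-10) and 8.59 for Nr2f1 (adjusted p = 8.13e-09). All 4 were called, where 33.4% of 5302 genes were.

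**Figure D3:**
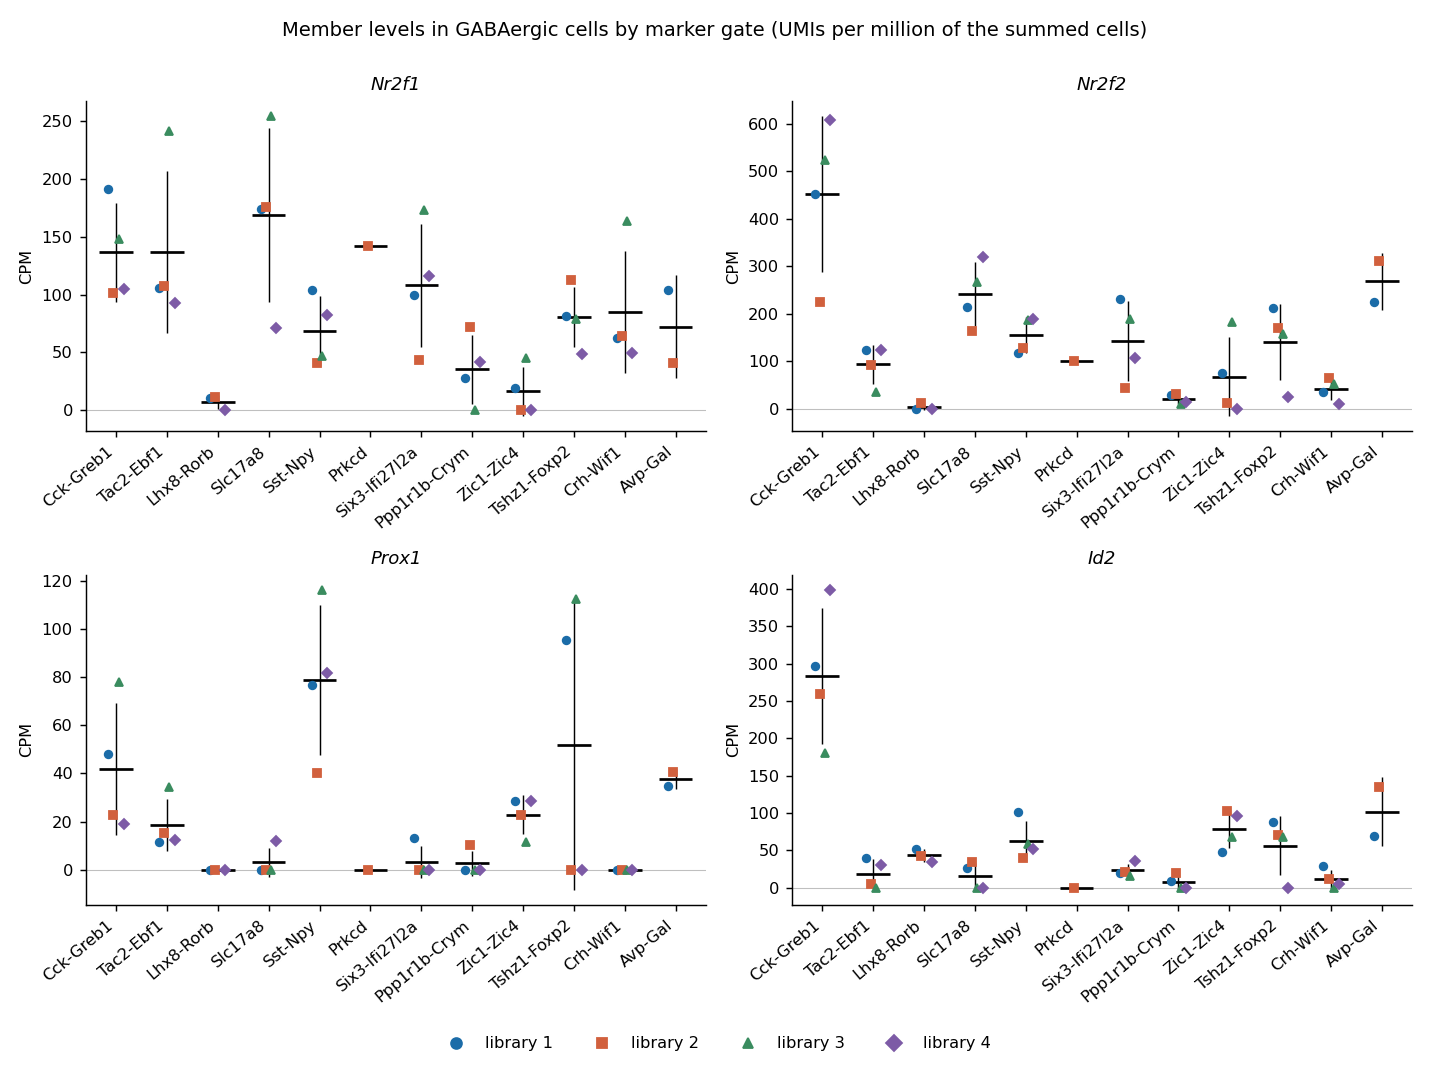
Levels of 4 members in CPM (vertical axes, scaled per gene) in each of the 12 gates. Points are libraries with at least 10 cells of the gate, horizontal lines their mean and vertical lines 1 SD; Cck-Greb1 cells lie highest for Nr2f2 (452 ± 164 CPM) and Id2 (284 ± 90.9 CPM), Sst-Npy cells for Prox1 (78.9 ± 31.1 CPM).

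The 10 gates with at least 3 libraries of 10 cells were put in order by their mean level. For Nr2f2 the order ran from Cck-Greb1 over the Slc17a8 gate, marked by the vesicular glutamate transporter VGLUT3, at 214, 164, 266 and 320.3 CPM (241 ± 67.0 SD, n = 4). Below it came Sst-Npy (155 ± 37.9 CPM), Six3-Ifi27l2a (143 ± 84.0), Tshz1-Foxp2 (140.5 ± 80.9), Tac2-Ebf1 (93.2 ± 41.7), Zic1-Zic4 (67.2 ± 83.2), Crh-Wif1 (40.5 ± 23.4), Ppp1r1b-Crym (20.7 ± 10.1) and Lhx8-Rorb (3.61 ± 6.25, n = 3, from 1 UMI). Of the 9 pairs of neighbours in this order only Cck-Greb1 and Slc17a8 differed (log2 0.92, SE 0.27, edgeR adjusted p = 0.0183), where 8.32% of gene tests over these pairs were called. The other neighbours in the order were not called. Here and for the members below, the order was set by the same values that its steps test, so the steps only describe it. The shares beside them cover all genes in the order of the member, not each gene in its own order. Against each of the 9 other gates in turn, Nr2f2 was higher in Cck-Greb1 cells in 9 of 9 tests, with log2 differences from 0.92 to 6.43, where 7.66% of gene tests were called.

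For Id2, the order of the same 10 gates had Zic1-Zic4 after Cck-Greb1, at 47.5, 102.2, 68.0 and 95.6 CPM (78.3 ± 25.3; SD, n = 4), then Sst-Npy (62.8 ± 26.4), Tshz1-Foxp2 (56.6 ± 38.9), Lhx8-Rorb (43.4 ± 8.50, n = 3), Six3-Ifi27l2a (23.2 ± 8.63), Tac2-Ebf1 (19.1 ± 19.6), Slc17a8 (15.5 ± 18.2), Crh-Wif1 (11.5 ± 12.9) and Ppp1r1b-Crym (7.44 ± 9.73). The first step was the only one called among the 9 pairs of neighbours (log2 1.84, SE 0.33, edgeR adjusted p = 3.21e-05), where 7.12% of gene tests were. Id2 was higher in Cck-Greb1 cells than in each of the 9 gates, with log2 differences from 1.84 to 5.17, where 7.66% of gene tests were called. Slc17a8 cells, after Cck-Greb1 the highest of these 10 gates for Nr2f2, were near the bottom for Id2, with 5 UMIs in 74 cells.

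Nr2f1 was shared by more gates. Slc17a8 cells stood first at 174.1, 176.1, 255 and 71.2 CPM (169 ± 75.2; SD, n = 4), followed by Tac2-Ebf1 (137 ± 70.4), Cck-Greb1 (137 ± 42.7), Six3-Ifi27l2a (108 ± 53.2), Crh-Wif1 (84.8 ± 53.0), Tshz1-Foxp2 (80.5 ± 26.1) and Sst-Npy (68.3 ± 30.2). Ppp1r1b-Crym (35.2 ± 29.8), Zic1-Zic4 (16.1 ± 21.5) and Lhx8-Rorb (7.07 ± 6.13, n = 3) were low. The Tac2-Ebf1 mean was raised by library 3 (242 CPM from 14 UMIs). With libraries pooled, Tac2-Ebf1 cells stood at 112 CPM and Cck-Greb1 cells at 156 CPM. In the fit Cck-Greb1 cells were above Tac2-Ebf1 cells, though not called (log2 0.26, SE 0.27). The step from Sst-Npy to Ppp1r1b-Crym was the only one called of the 9 (log2 1.23, SE 0.41, edgeR adjusted p = 0.0225), where 7.87% of gene tests were. Cck-Greb1 cells were higher than Crh-Wif1, Ppp1r1b-Crym, Zic1-Zic4 and Lhx8-Rorb cells, 4 of 9 tests, where 7.66% of gene tests were called.

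Prox1 was led by the Sst-Npy gate, which is marked by the somatostatin and neuropeptide Y genes. Its cells held 76.9, 40.3, 116 and 81.9 CPM of Prox1 in libraries 1 to 4 (78.9 ± 31.1; SD, n = 4). Tshz1-Foxp2 cells came next (52.0 ± 60.5) but split by library, with 95.5 and 112.5 CPM in libraries 1 and 3 and no UMI in libraries 2 and 4. Cck-Greb1 (41.9 ± 27.4), Zic1-Zic4 (22.8 ± 8.14) and Tac2-Ebf1 (18.4 ± 10.9) followed, while Six3-Ifi27l2a, Slc17a8 and Ppp1r1b-Crym held 2, 1 and 1 UMIs. Lhx8-Rorb cells held none in the 3 libraries tested and 3 in library 3, which had too few cells to enter. No pair of neighbours was called by edgeR, the only tool run on this order (0 of 9, where 6.55% of gene tests were). Cck-Greb1 cells were higher than Slc17a8, Six3-Ifi27l2a, Ppp1r1b-Crym, Lhx8-Rorb and Crh-Wif1 cells, 5 of 9 tests, where 7.66% of gene tests were called. Crh-Wif1 cells held no Prox1 UMI in any library (152 cells, which allows up to 3.68 CPM), so that Cck-Greb1 cells were at least 13.9-fold higher over the pooled libraries and Sst-Npy cells at least 20.7-fold.

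The gates with fewer libraries entered the test across all gates but no test of their own, and are given as levels. Avp-Gal cells (39 cells) stood at 225 and 310.2 CPM of Nr2f2 in libraries 1 and 2, between Cck-Greb1 and Slc17a8 cells in the mean (268 CPM), and at 69.3 and 134.9 CPM of Id2 (mean 102.1 CPM, above Zic1-Zic4 cells). In library 2 their Nr2f2 level was above that of Cck-Greb1 cells (225 CPM). Prkcd cells (36 cells) held 28 Nr2f1 UMIs (133 CPM pooled) but none of Id2, which allows up to 14.3 CPM.

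Npas1 and Sp8 were concentrated in other gates than Nr2f2 and Id2, from few UMIs. Tac2-Ebf1 cells held 13, 2, 0 and 3 Npas1 UMIs in libraries 1 to 4, 18 of the 33 in gated cells, from 9 cells. Zic1-Zic4 cells held 0, 4, 2 and 1 Sp8 UMIs, 7 of the 15 in gated cells, from 6 cells. The other Sp8 UMIs in gated cells were 4 in Sst-Npy, 3 in Cck-Greb1 and 1 in Six3-Ifi27l2a cells. A further 15 Sp8 UMIs were in ungated GABAergic cells. No fold change or test is given for either gene.

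Set against all other gated cells, each of the remaining gates showed its own combination. Slc17a8 cells were higher in Nr2f1 (log2 0.97, SE 0.25, adjusted p = 0.00722) and Nr2f2 (0.70, SE 0.20, adjusted p = 0.0184) and lower in Id2 (-2.15, SE 0.54, adjusted p = 0.00576), 3 of 3 members tested, where 4.51% of genes were called. The Nr2f1 call was lost without library 2 (0.82) or library 3 (0.83), the Nr2f2 call without library 2 (0.68) or library 4 (0.44), and the Id2 call without library 3 (-1.72) or library 4 (-1.78). Without the library block, the Nr2f1 difference was 0.98 (adjusted p = 0.129) and the Nr2f2 difference 0.69 (adjusted p = 0.300), neither past the threshold. Sst-Npy cells were higher in Prox1 (2.08, SE 0.27, edgeR adjusted p = 9.88e-07), the only 1 of 4 members called, where 2.06% of genes were.

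Ppp1r1b-Crym cells, whose markers are typical of striatal projection neurons, were low in every tested member. Nr2f2 stood at 27.9, 30.7, 10.3 and 13.8 CPM there (log2 -2.92, SE 0.31, edgeR adjusted p = 1.98e-17). Id2 was lower by a log2 of -3.32 (SE 0.50) and Nr2f1 by -1.46 (SE 0.31), so that 3 of 3 members were called, where 20.3% of genes were. Without library 1 the Nr2f1 difference missed the threshold (-1.19, adjusted p = 0.0589).

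Crh-Wif1 cells, marked mainly by corticotropin-releasing hormone, had no called difference in Nr2f1 (log2 -0.23, SE 0.21, adjusted p = 0.637) but were lower in Nr2f2 (-2.09, SE 0.24) and Id2 (-2.33, SE 0.35), 2 of 3 members called, where 6.38% of genes were. Wif1 itself stood at 7.36 CPM in this gate and at 21.4 CPM in Tac2-Ebf1 cells, so the gate rests on Crh. Lhx8-Rorb cells, tested in 3 libraries, were lower in Nr2f2 (-5.08, SE 0.68, from 1 UMI) and Nr2f1 (-3.43, SE 0.68, from 2 UMIs), 2 of 3 members called, where 4.52% of genes were. Without library 4 the Nr2f1 difference there had an adjusted p of 0.0511. Zic1-Zic4 cells were lower in Nr2f1 (-2.64, SE 0.47) and Nr2f2 (-1.35, SE 0.31), 2 of 4 called, where 2.38% of genes were, but the Nr2f2 call was lost without library 4 (-0.95, adjusted p = 0.0797) and without the library block (-1.31, adjusted p = 0.321).

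In Tac2-Ebf1 cells Id2 was lower (-1.47, SE 0.29, adjusted p = 0.000378) and was the 1 of 4 members called, where 3.48% of genes were. That call was lost with the mitochondrial limit at 5% (-1.16, adjusted p = 0.230) and without the library block (-1.35, adjusted p = 0.0889). Id2 was also lower in Six3-Ifi27l2a cells (-1.55, SE 0.41, adjusted p = 0.0397), 1 of 3 called, where 1.17% of genes were. The Six3-Ifi27l2a call was lost without library 1 (-1.21), library 2 (-1.60) or library 3 (-1.49), and without the library block (-1.52, adjusted p = 0.188). None of 4 members was called in Tshz1-Foxp2 cells by edgeR, where 1.51% of genes were and 713 of 7661 genes had an unadjusted p under 0.05.

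Outside the inhibitory neurons, Prox1 and Id2 had their highest levels in glia. Prox1 stood at 201, 232, 378 and 207 CPM in oligodendrocytes against 34.4, 14.2, 55.6 and 20.8 CPM in GABAergic cells, without overlap and highest in library 3 in both. GABAergic cells were lower by a log2 of -3.46 (SE 0.16, edgeR adjusted p = 8.80e-21). Of all Prox1 UMIs in kept cells, 56.8% were in oligodendrocytes and 37.8% in GABAergic cells. Oligodendrocyte precursors held 104 ± 32.3 CPM (SD, n = 4), above GABAergic cells in 4 of 4 libraries (log2 -1.39 for GABAergic cells, SE 0.44, adjusted p = 0.00688), though not past the threshold without library 2 (-0.98, adjusted p = 0.123).

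Oligodendrocytes had little of the other members. Their levels were 6.56 ± 5.80 CPM of Nr2f1, 5.90 ± 4.09 of Nr2f2 and 5.14 ± 2.09 of Id2 (SD, n = 4). GABAergic cells stood at 97.1 ± 23.3, 157 ± 39.5 and 67.1 ± 13.6 CPM, higher by a log2 of 3.27 (SE 0.30), 4.22 (SE 0.28) and 3.32 (SE 0.35). All 4 tested members were called in this comparison, where 69.7% of genes were, so a call says little here.

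Astrocytes held 779.9, 775, 623 and 679.8 CPM of Id2, above Cck-Greb1 cells in every library. GABAergic cells as a whole were lower by a log2 of -3.48 (SE 0.17, edgeR adjusted p = 2.21e-89) and higher in Nr2f2 (1.68, SE 0.33, adjusted p = 2.08e-06), 2 of 4 members called, where 54.5% of genes were. With a minimum of 800 genes per cell the Nr2f2 difference from astrocytes was 0.53 (adjusted p = 0.573). Precursors held 259 ± 82.0 CPM of Id2 (SD, n = 4; GABAergic cells lower by a log2 of -1.63, SE 0.29) and less Nr2f2 than GABAergic cells (41.0 ± 15.1 CPM, log2 2.26, SE 0.44), 3 of 4 members called, where 36.4% of genes were.

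**Figure D4:**
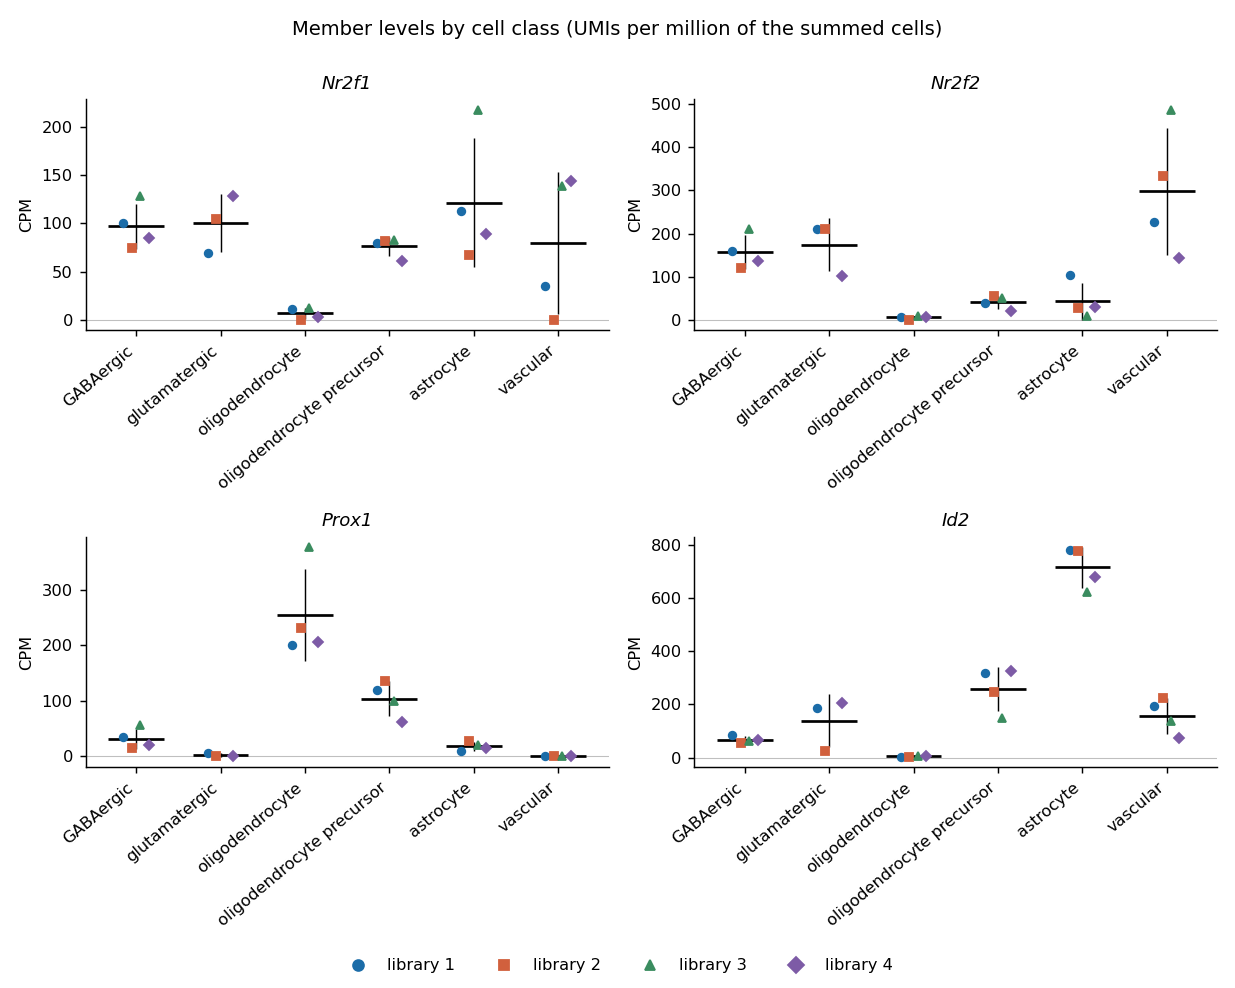
Levels of 4 members in CPM (vertical axes, scaled per gene) in 6 cell classes. Points are libraries with at least 10 cells of the class, horizontal lines their mean and vertical lines 1 SD; oligodendrocytes lie highest for Prox1 (254 ± 83.3 CPM) and astrocytes for Id2 (715 ± 76.4 CPM).

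Vascular cells were few (85) and held Nr2f2 at 228, 334, 487 and 144.4 CPM, against 160.4, 119.4, 210.4 and 137.0 CPM in GABAergic cells, higher in each library but not past the test (log2 -0.40 for GABAergic cells, SE 0.40, edgeR adjusted p = 0.463). They held no Prox1 UMI, which allows up to 26.7 CPM, so that GABAergic cells were at least 1.14-fold higher. Prox1 was the 1 of 4 members called there, where 32.0% of genes were. Glutamatergic neurons (83 cells, 3 libraries tested) held 2 Prox1 UMIs, fewer for their depth than GABAergic cells (log2 2.75, SE 0.84, adjusted p = 0.0468), 1 of 4 members called, where 2.24% of genes were. That call was lost without any 1 of libraries 1 (7.07), 2 (2.63) and 4 (2.65), and without the library block (2.44, adjusted p = 0.281). Id2 stood at 185.6, 26.3 and 205 CPM in the glutamatergic cells of libraries 1, 2 and 4 and was not called (log2 -0.90, adjusted p = 0.0506).

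GABAergic cells were also divided by the members themselves. In the 569 cells with an Nr2f2 UMI, the other tested members stood higher than in the 1612 without: Nr2f1 by a log2 of 1.16 (SE 0.11), Prox1 by 1.70 (SE 0.19) and Id2 by 1.85 (SE 0.13), 3 of 3 called, where 6.87% of genes were. In cells with an Id2 UMI, Prox1 (1.83, SE 0.23) and Nr2f2 (1.40, SE 0.12) were higher and Nr2f1 was not called (0.35, adjusted p = 0.301), 2 of 3, where 3.29% of genes were. In cells with an Nr2f1 UMI only Nr2f2 was called (1.24, SE 0.10), 1 of 3, where 3.09% of genes were, while Prox1 had a difference of 0.64 (adjusted p = 0.0518).

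Depth moved with these divisions. Cells with an Nr2f2 UMI had a median of 4960 UMIs and those without 2966.5, and with every cell thinned to 1000 UMIs, 1 of the 4 pairs that could be fitted passed. Nr2f1 was higher in cells with an Nr2f2 UMI at that depth (log2 1.35, SE 0.30, edgeR adjusted p = 0.0368). The other thinned differences were 1.23 for Nr2f2 by Nr2f1 (SE 0.31, adjusted p = 0.202), 0.27 for Id2 by Nr2f2 (SE 0.44, adjusted p = 0.967) and 0.45 for Nr2f2 by Id2 (SE 0.45, adjusted p = 1.00). Prox1 was not used for a division because fewer than 20 cells held it in a library.

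The genes whose mean levels over the 10 gates were most like a member were found by Pearson r of log2(CPM + 1) among 5766 genes with at least 200 UMIs in gated cells. The points share libraries and depth, so r is a description over 10 gates. For Nr2f1 they were Cnrip1 (r = 0.95), AW551984 (0.93) and Sqstm1 (0.92). For Nr2f2 they were Agtpbp1 (0.94), Shprh (0.93) and Sez6l (0.92), and for Id2 1700123O20Rik (0.89), Aprt (0.88) and Chgb (0.85). Nr2f1 and Nr2f2 had an r of 0.82 with each other, which put Nr2f2 at rank 34 among the genes most like Nr2f1, whereas Id2 had an r of 0.40 with Nr2f2 and -0.07 with Nr2f1. Prox1, Npas1 and Sp8 had fewer than 200 UMIs in gated cells.

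Other genes of the ganglionic eminences were read in Cck-Greb1 cells against the other gates, where the median log2 fold change of all 7737 genes was -0.00055 and 6.35% were called, 269 higher and 222 lower. Of 16 genes taken as markers of caudal-type cortical interneurons, 8 were tested, 2 rose, 1 fell and the median was -0.40, beside the 6.35% called over all genes. Those not called were Adarb2 (-0.73), Calb2 (-0.47), Npy2r (-0.42), Crhbp (-0.39) and Nos1 (0.36). How far each gene of the list is limited to caudal-type cells was not tested, so the median describes the list only. Synpr, a synaptic vesicle protein gene, rose by 0.97 (SE 0.19) and Lamp5 by 0.85 (SE 0.15), while Cnr1, the cannabinoid receptor gene, fell (-1.70, SE 0.29). Vip had 20 UMIs in a single Cck-Greb1 cell and Htr3a had 16 UMIs in 9 cells (20.4 CPM, against 3.58 CPM in the other gates). Without the GABAergic cells holding a UMI of either, the log2 fold changes were 2.14 for Nr2f2, 2.90 for Id2 and 0.75 for Nr2f1.

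Of 17 factors shared by the eminences, 12 were tested, 7 rose and 1 fell, with a median of 1.01 (over all 7737 genes, 269 rose and 222 fell). Nfix rose by 2.07 (SE 0.29), and the homeobox genes Dlx2 and Dlx1, which act early in the inhibitory lineage, by 1.56 (SE 0.34) and 1.51 (SE 0.15). Sox2 rose by 1.11 (SE 0.18) and Dlx6 fell (-1.23, SE 0.28). Of 9 factors of the medial eminence, 5 were tested that mark no gate, and 3 of them rose with a median of 1.37: Satb1 by 2.10 (SE 0.28), Sox6 by 1.66 (SE 0.36) and Lhx6 by 1.37 (SE 0.24). Lhx6, a defining factor of medial-type neurons, stood at 117 ± 37.8 CPM in Cck-Greb1 cells and 44.0 ± 11.3 CPM in the other gates (SD, n = 4), higher in 4 of 4 libraries. Nkx2-1 was too low to test, with 14 UMIs (17.9 against 13.9 CPM).

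Of the 11 factors of the lateral eminence and striatum, 5 were tested that mark no gate, and all 5 fell, with a median of -2.67 (over all 7737 genes, 222 fell). Bcl11b (CTIP2, high in striatal projection neurons) stood at 6.90 ± 8.11 CPM in Cck-Greb1 cells and 239 ± 69.3 CPM in the other gates (log2 -4.47, SE 0.31). Meis2 stood at 65.8 ± 26.2 and 496 ± 97.6 CPM (log2 -2.96, SE 0.18), and the other 3, named after their values were seen, were Zfp503, Isl1 and Foxp1. A further 4 genes of this list (Foxp2, Ebf1, Six3 and Tshz1) and Lhx8 mark other gates, so that their low level follows from the gating and is no result. The cells compared with include Tac2-Ebf1 (156 cells), Six3-Ifi27l2a (96) and Tshz1-Foxp2 (114), gated by these genes, and Ppp1r1b-Crym (160). How far the fall of the 5 genes follows from this choice of gates was not tested. Of 24 partners and relatives of the members, 14 were tested with a median of -0.08. Tcf4, an E protein gene, rose by 0.58 (SE 0.14), and Bcl11a fell (-0.64, SE 0.21). Nr2f6, the third gene of the Nr2f family, had a log2 difference of 0.018 (SE 0.55) and was not called. Id1 and Id3 had no UMI in Cck-Greb1 cells, which allows up to 3.83 CPM each.

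**Figure D5:**
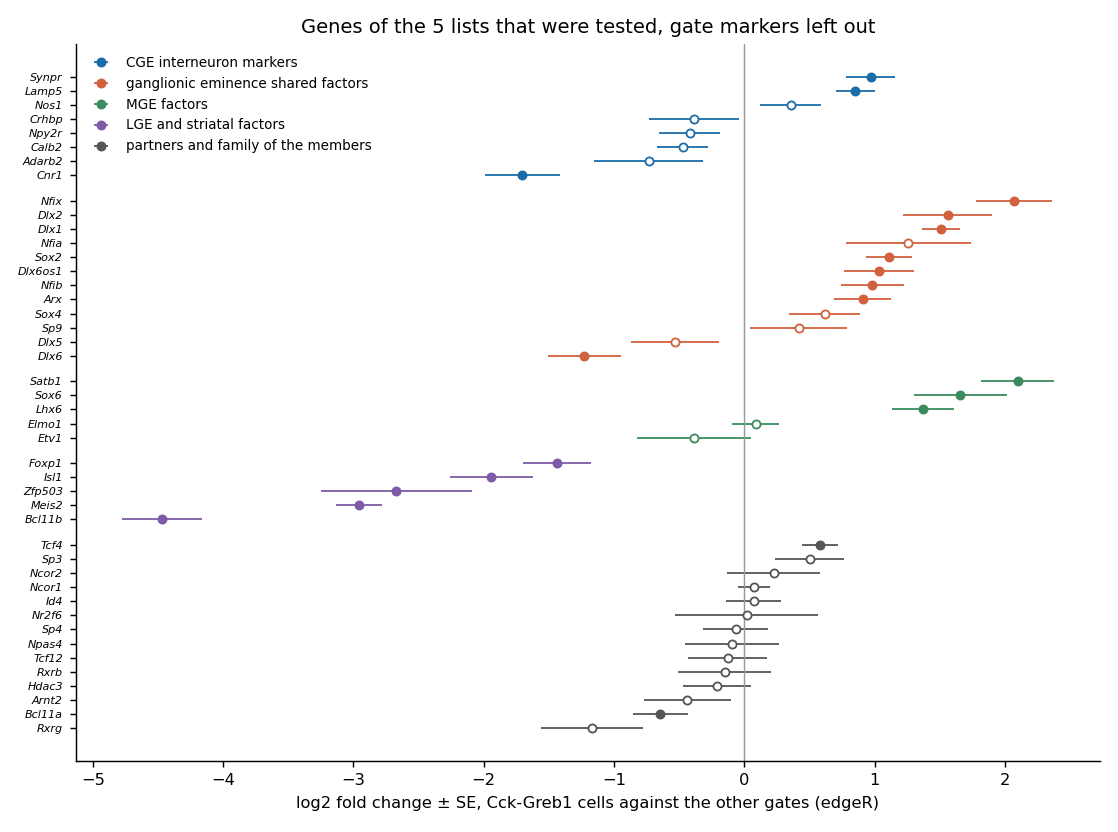
Log2 fold change with its SE (horizontal axis) of the tested genes of 5 lists in Cck-Greb1 cells against the other gates, by list, gate markers left out. Filled points passed an adjusted p of 0.05 (edgeR); all 5 points of the lateral eminence and striatal list lie below 0, from Foxp1 to Bcl11b (-4.47), and the medial eminence list is led by Satb1 (2.10).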

How the data were processed

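The deposited tables hold raw UMI counts per gene and cell barcode, per the file headers and values, which are whole numbers. The submitters' processing notes name bcl2fastq 2.18.0.12, STAR 2.4.2a, Picard 2.2.4 and the builds mm10 and GRCm38; the annotation, counting strand and barcode rule are not given in the sources used here. The members and gene lists were chosen with earlier results of these data known.

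Barcodes were kept with at least 400 genes and at most 10% mitochondrial UMIs, and Scrublet (scanpy 1.11.5, expected rate 0.05, per library) removed 58 of 4239 cells (1.37%). Totals were 5652342, 2762405, 2640399 and 2962880 UMIs in libraries 1 to 4, and kept cells had medians of 2504, 1932, 1577 and 1483.5. Chi-square per degree of freedom between libraries was 4.14 to 20.7, and each was counted as 1 replicate. A cell took the class, and a GABAergic cell the gate, whose markers had the most UMIs, if at least 2 and more than any other. Microglia (10 cells) were not compared, and 335 kept cells had no class.

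UMIs were summed per library and side. A minimum of 10 cells per sum was set for the tests of the other gates and of the classes. No such minimum was set for Cck-Greb1 cells against the other gates, the Pnoc split or the divisions by a member. The test was the quasi-likelihood F-test of edgeR 4.0.16 (R 4.3.3) after filterByExpr and TMM scaling. The library was a block, because each library gives both sums, from 1 pool of mice. P-values were Benjamini-Hochberg adjusted over all genes tested, and the SE was derived from the fold change and its F. The named list genes are those past an adjusted p of 0.05, at most 4 a direction. Counting limits are 3 UMIs of the total and cover counting error only. On counts simulated for Cck-Greb1 against the other gates (7737 genes, 200 changed 2-fold), edgeR recovered 64% with 2.29% wrong calls. The simulation drew every library from 1 shared profile with 1 dispersion and no difference between libraries, so these rates need not hold for the real counts. Alternatives changed the cell filters, gates, depth, normalisation, tool (DESeq2 1.42.0), low-count filter and block, or left out a library; 2 that drop cells (Htr3a or Vip, astrocyte markers) were chosen after seeing the data. Tables and plots were made in Python 3.11.15 with pandas 2.3.3, numpy 2.4.6, matplotlib 3.10.9 and scipy 1.17.1. Positions come from GENCODE vM21 on GRCm38 and the printed sequences from RefSeq on GRCm38.p6.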

Additional observations from a re-analysis of the deposited data

Results flagged for a closer look

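Of 51 sets of 4 libraries with at least 10 UMIs of a member in a class or gate, 4 had a library whose gap to the others exceeded Dixon's 95% critical value, where chance gives about 1 in 20, or 2.55. Library 3 was the high one in 3 of them. Nr2f1 stood at 242 CPM in its Tac2-Ebf1 cells (14 UMIs, 13 cells), with 92.3 to 107.8 CPM in the other libraries. Nr2f1 stood at 163.6 CPM in its Crh-Wif1 cells (22 UMIs, 24 cells), with 49.3 to 63.9 CPM elsewhere. Prox1 stood at 34.6 CPM in its Tac2-Ebf1 cells from 2 UMIs, with 11.5 to 15.4 CPM elsewhere. Nr2f1 was low in the oligodendrocyte precursors of library 4, at 61.0 CPM from 3 UMIs in 51 cells, with 79.2 to 82.5 CPM elsewhere.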

How the results depend on the processing

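The calls of Nr2f2 and Id2 in Cck-Greb1 cells held in all 17 alternatives that gave them a value, with log2 fold changes from 1.89 to 2.29 and from 2.5 to 3.24. With every cell thinned to 1000 UMIs before gating, no member passed the low-count filter. Nr2f1 missed the threshold without the replicate block (0.85), with DESeq2 (0.75) and with 5% mitochondrial UMIs (0.61), and ranged from 0.51 to 0.96 with each library left out. Prox1 reversed in cells with both Cck and Greb1 (-0.22). The 491 calls became 200 without the replicate block, 221 with DESeq2, 194 with 5% mitochondrial UMIs, 286 with both markers, 28 at 1000 UMIs (1051 genes tested) and 306 to 435 with each library left out. Excluding GABAergic cells with an Htr3a or Vip UMI, or with an astrocyte marker UMI, both chosen after seeing the data, gave 452 and 486 calls. Within the gate, the Nr2f1 difference by Pnoc (-0.13) ranged from -0.30 to 0.049 with library 2 or 4 left out, reversing without library 4. Over the other comparisons, 39 alternative values lost their call and 315 kept their direction and their side of the threshold. The cause of these changes was not tested, except that thinning leaves fewer genes to test. Depth limits Npas1, Sp8 and Prox1 most, since gated cells held 33, 15 and 184 of their UMIs.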
